A study of Arabidopsis thaliana with 24 samples.

Results

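The light-harvesting antenna genes of photosystem I, LHCA1 to LHCA6, were examined for H3 lysine 9 acetylation (H3K9ac), a mark of transcriptionally active genes. They were taken by their 6 gene identifiers, and each has 1 peak in the deposited table, so that they make up 6 of its 17672 genes and 6 of its 19435 entries of a peak with a gene. The study compared whole Arabidopsis seedlings of the pif1345 quadruple mutant (pifq), which lacks 4 PHYTOCHROME INTERACTING FACTORs, with wild type (wt), both in the Columbia-0 ecotype. Seedlings were collected at an age of 2 days in darkness (D), after 47 h of darkness followed by 1 h of red light of 10 μE per square metre and second (R1h), or in continuous white light of 100 μE (WLc). R1h and WLc thus differ in the colour, the intensity and the duration of the light. By the paper's methods, D and R1h seedlings were also given white light and then a far-red pulse before darkness. WLc seedlings went into white light after stratification, so WLc differs from D in this too. Each of the 6 groups has 3 H3K9ac libraries by the labels, but the authors deposited 1 pooled number for each peak in a group. It comes with no spread, no test was run, and every difference below is a description without a replicate check. The values are H3K9ac signal per bp of peak. Sequencing depth is unknown, and the medians over all entries, from 0.711 (pifq D) to 0.723 (wt WLc), were close to each other.

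The LHCA proteins bind chlorophyll and carotenoids in the thylakoid membrane and pass light energy to the photosystem I core. LHCA1 pairs with LHCA4 and LHCA2 pairs with LHCA3, and the pairs form a belt on one side of the core. LHCA5 and LHCA6 are made in small amounts and link photosystem I to the chloroplast NADH dehydrogenase-like (NDH) complex of cyclic electron flow. All are encoded in the nucleus. The PIF proteins act in darkness to hold back the programme of light-grown development, to which the antenna genes belong, and phytochromes activated by red light lead to their breakdown.

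The peaks lay over the gene bodies of all 6 genes. Positions are those of the table, and gene models are from the TAIR10.1 annotation. LHCA1 (AT3G54890, chromosome 3, bases 20339504 to 20341176, minus strand) has its peak at 20338849 to 20341100, from 76 bp to 2327 bp downstream of the annotated start site, and 29.1% of that peak lies beyond the 3′ end of the gene. LHCA4 (AT3G47470, chromosome 3, 17493343 to 17495033, minus strand) has the longest peak of the 6, at 17492449 to 17495150. It covers the whole gene and 117 bp upstream of the start site, and 33.1% of it lies beyond the 3′ end. LHCA2 (AT3G61470, chromosome 3, 22745514 to 22747444, plus strand) has the shortest, 1103 bp at 22745649 to 22746752, which begins 135 bp downstream of the start site and is 53.4% coding sequence and 38.8% intron. LHCA3 (AT1G61520, chromosome 1, 22699715 to 22701412, plus strand) has a peak at 22699418 to 22701272 that takes in 297 bp upstream of the start site. LHCA5 (AT1G45474, chromosome 1, 17179250 to 17180806, plus strand) has one at 17179021 to 17180404, with 229 bp upstream. LHCA6 (AT1G19150, chromosome 1, 6612630 to 6613972, plus strand) has one at 6611803 to 6613405, and here the larger part of the peak, 51.6%, lies upstream of the start site.

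Peaks at LHCA4 and LHCA6 are not theirs alone. The LHCA6 peak is entered in the table a second time for AT1G19140, a gene on the opposite strand whose start site is 21 bp away, so that 1 region of H3K9ac spans both starts. The LHCA4 peak is entered also for ATSMC2 (AT3G47460), which runs towards LHCA4 and overlaps the peak by 947 bp at its 3′ end, with its own start site 8543 bp away. Signals at these peaks cannot be divided between the genes. Of the 50-base stretches in each peak (the length of the reads), 23 of 1055 in LHCA2 occur elsewhere in the nuclear chromosomes and 0 do in the peaks of the other 5 genes.

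**Figure D1:**
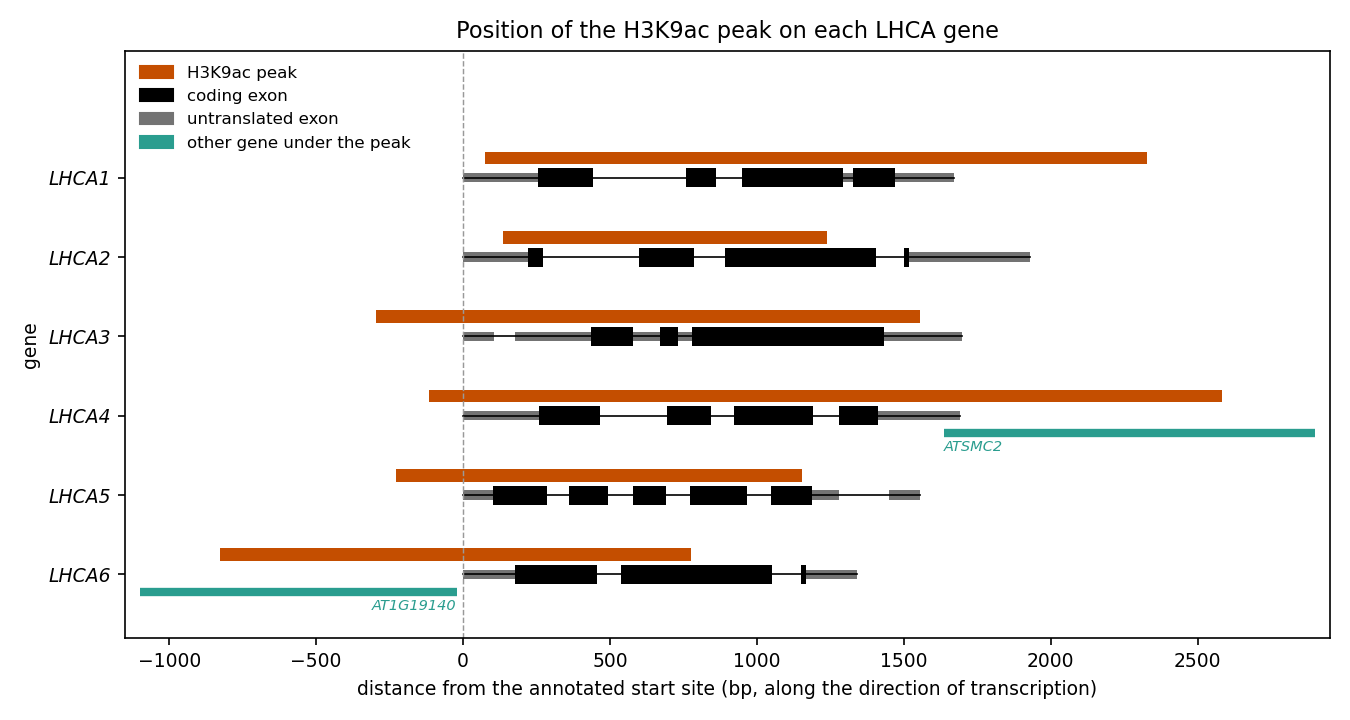
Gene models and H3K9ac peaks of LHCA1 to LHCA6, drawn to scale along the direction of transcription with the annotated start site at 0 bp. Orange bars are the peaks, and green bars are other genes under a peak, cut at the edge of the plot. The LHCA6 peak reaches 827 bp upstream of the start site, into AT1G19140, and the LHCA1 and LHCA2 peaks begin downstream of it.

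Sequence upstream of 3 genes is shown, read from the TAIR10.1 genome of RefSeq on the strand of the gene, 5′ to 3′ up to the base before the start site. LHCA4 and LHCA1 are shown because they form a pair and were both higher in every light and mutant group than in wt D. LHCA2 is shown because its signal after red light was not above that of darkness. LHCA3, LHCA5 and LHCA6, not shown, were also higher in all these groups than in wt D, and their windows hold no CACGTG or GATAAG. The stretches are chr3:17495034-17495283 (minus strand) for LHCA4, chr3:20341177-20341356 (minus strand, 180 bases, ending where the neighbouring gene begins) for LHCA1 and chr3:22745264-22745513 (plus strand) for LHCA2. Capitals mark CACGTG (G-box), GATAAG (I-box) and AAAAATCT (a CCA1-type site), each searched on both strands.
LHCA4: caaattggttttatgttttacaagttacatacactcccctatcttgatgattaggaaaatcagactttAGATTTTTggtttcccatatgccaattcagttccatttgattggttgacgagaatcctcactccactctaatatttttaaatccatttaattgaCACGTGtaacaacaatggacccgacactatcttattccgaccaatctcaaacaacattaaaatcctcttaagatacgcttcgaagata
LHCA1: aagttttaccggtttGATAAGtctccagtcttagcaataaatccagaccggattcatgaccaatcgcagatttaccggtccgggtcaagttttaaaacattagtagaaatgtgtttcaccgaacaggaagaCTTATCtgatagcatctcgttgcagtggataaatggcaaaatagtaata
LHCA2: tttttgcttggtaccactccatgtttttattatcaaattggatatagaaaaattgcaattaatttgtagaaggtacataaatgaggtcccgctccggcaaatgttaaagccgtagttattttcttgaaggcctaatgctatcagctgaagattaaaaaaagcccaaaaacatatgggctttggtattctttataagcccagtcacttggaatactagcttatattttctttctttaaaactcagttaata

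In windows from 250 bases before to 50 after the start site, CACGTG, the letters to which PIF proteins can bind, was found in 1 of the 6 genes, LHCA4, and in 8.86% of 17580 promoters of genes in the table. In LHCA4 it lies at bases −88 to −83, inside the H3K9ac peak. CACATG, the PIF binding element, was found in LHCA1 only, at −197 to −192, where the window has entered the neighbouring gene CXIP1, and in 12.7% of promoters. GATAAG was found in LHCA1 and LHCA4 (15.1% of promoters), AAAAATCT in LHCA4 (8.36%) and AAATATCT in LHCA5 (5.86%). The GATAAG of LHCA4 lies at bases 5 to 10 downstream of the start site, outside the stretch printed above. The general letters CCAAT were in 5 of the 6 (54.0%) and TATAAA in 4 of the 6 (50.8%). In the 6 windows the only matches that overlap are those of TATAAA on both strands of LHCA6. A match is a description of these letters, and no match says only that they are not in this window.

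The genes of the 2 pairs and their NDH-linked relatives were closer to each other in wt WLc than in wt D. In wt WLc the signals lay between 0.646 at LHCA5 and 1.12 at LHCA2, the highest being 1.74 times the lowest. In wt D, LHCA2 had 0.738 and LHCA6 had 0.606, while the others lay between 0.158 at LHCA4 and 0.328 at LHCA3, so that the highest was 4.66 times the lowest. Of the 6 genes, 0 in wt WLc and 4 in wt D were among the 25% of genes with the lowest signal in that group. The ratio of highest to lowest was 2.75 in pifq D, 2.11 in pifq R1h and 1.92 in pifq WLc, against 2.16 in wt R1h. LHCA2 was the highest of the 6 in every group except wt R1h, where LHCA6 had 0.788 and LHCA2 had 0.713. Without replicates it cannot be said which neighbours in these orders differ beyond their spread, and LHCA4 and LHCA5 in wt WLc, at 0.648 and 0.646, were all but level.

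LHCA4, which carries the chlorophylls of longest wavelength in the antenna together with LHCA3, had the widest range as a ratio of its highest to its lowest signal. Its signal was 0.540 in pifq D, 0.534 in pifq R1h and 0.592 in pifq WLc, against 0.158 in wt D, 0.364 in wt R1h and 0.648 in wt WLc. Its 3 pifq values thus lay close together, and its 3 wt values went up in the order of the light conditions. LHCA1, its partner, had 0.579 in pifq D, 0.657 in pifq R1h and 0.681 in pifq WLc, against 0.254 in wt D, 0.488 in wt R1h and 0.740 in wt WLc. For both genes wt WLc was the highest of the 6 groups and wt D the lowest.

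LHCA3 had 0.788 in pifq D, 0.835 in pifq R1h and 0.849 in pifq WLc, against 0.328 in wt D, 0.514 in wt R1h and 0.895 in wt WLc, the same order of groups as LHCA1. LHCA2, its partner, had 1.06 in pifq D, 1.11 in pifq R1h and 1.14 in pifq WLc, against 0.738 in wt D, 0.713 in wt R1h and 1.12 in wt WLc. For LHCA2 the 6 values formed a low set, wt D and wt R1h, and a high set of the other 4 groups. The partners therefore differed in R1h, where LHCA3 was above its dark level and LHCA2 was not.

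LHCA5 had 0.386 in pifq D, 0.525 in pifq R1h and 0.660 in pifq WLc, against 0.198 in wt D, 0.467 in wt R1h and 0.646 in wt WLc. LHCA6 had 0.717 in pifq D, 0.863 in pifq R1h and 0.939 in pifq WLc, against 0.606 in wt D, 0.788 in wt R1h and 0.827 in wt WLc. At both genes wt R1h was above pifq D, which was so at none of LHCA1 to LHCA4. LHCA6 had the narrowest range as a ratio, its highest value being 1.55 times its lowest, close to 1.60 times at LHCA2, while the ratio was 4.09 at LHCA4.

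**Figure D2:**
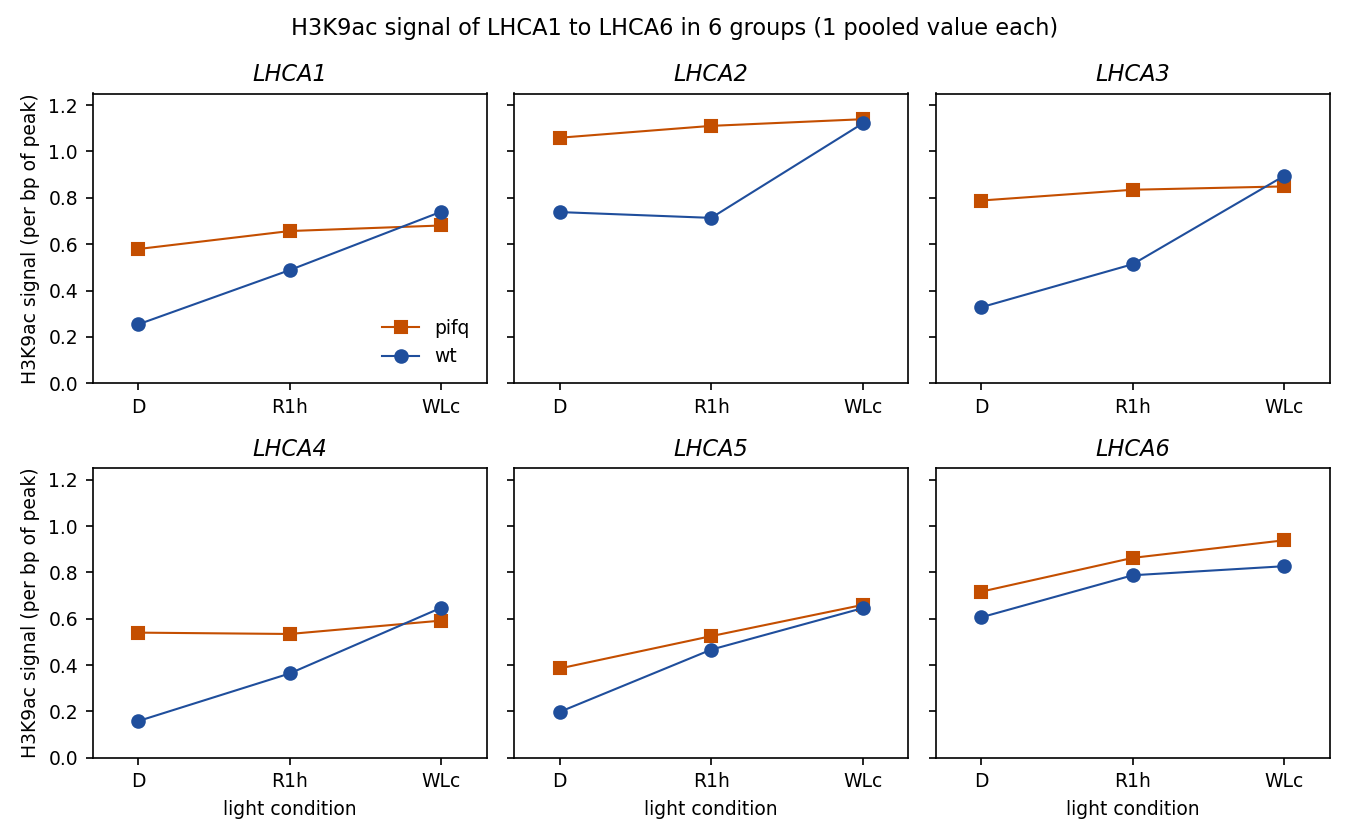
H3K9ac signal per bp of peak (y axis) of LHCA1 to LHCA6 in D, R1h and WLc, with pifq as orange squares and wt as blue circles. Each point is 1 pooled value, and lines join groups of separate seedlings. On this scale the genotypes are further apart in D at LHCA1 to LHCA4 than at LHCA5 and LHCA6. As a log2 change in D, LHCA5 (0.76) is above LHCA2 (0.48). In WLc the genotypes are near each other at all 6 genes.

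The first comparison asked how the antenna genes stood after 1 h of red light. LHCA5, LHCA4 and LHCA1 had more H3K9ac in wt R1h than in wt D, with log2 changes of 1.00, 0.92 and 0.78. LHCA3 had 0.55 and LHCA6 had 0.34, and LHCA2 had −0.05. Changes were computed after adding 0.0717 to each value, which is 0.1 of the median of all values and makes the change of low signals smaller. On this scale 3 of the 6 genes were at least 1.5-fold higher and 0 were at least 1.5-fold lower, where 3.41% of all genes were higher and 0.628% lower by as much. The median log2 change was 0.67 over the 6 genes and −0.0014 over all genes. With no pseudocount, with one of 0.01 of the median or with signal summed over the peak length, LHCA3 was past 1.5-fold as well, which made 4 of the 6. Quantile normalization left LHCA1 and LHCA5, 2 of the 6, and a pseudocount of 0.5 of the median left 0. At a 2-fold limit the count was 0, although LHCA4 and LHCA5 had ratios of 2.297 and 2.356 before the pseudocount was added.

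White-light growth gave larger differences from darkness. LHCA4 was higher in wt WLc than in wt D by 1.64 on the log2 scale, LHCA5 by 1.41, LHCA1 by 1.32 and LHCA3 by 1.27. LHCA2 had a log2 change of 0.56, just under the 1.5-fold limit of 0.58, and LHCA6 had 0.41. LHCA2 was past this limit with a pseudocount of 0.01 of the median (0.60), with none (0.60), with quantile normalization (0.70) and with scaling to reference genes (0.59), each of which gave 5 of the 6. With the pseudocount of 0.0717, 4 of the 6 were at least 1.5-fold higher and 0 lower, against 7.22% of all genes higher and 6.16% lower, and the median was 1.296 over the 6 genes and −0.01 over all genes. Of all genes, 1.14% had a higher log2 change than LHCA4 and 11.5% a higher one than LHCA6. With the 25% of peaks of lowest mean signal left out, LHCA4 and LHCA5 among them, 2 of the remaining 4 were 1.5-fold higher.

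In dark-grown pifq, all 6 genes were above wt D. LHCA4 was higher by 1.41 on the log2 scale, LHCA3 by 1.11 and LHCA1 by 1.00, and LHCA2 had a log2 change of 0.48. Of the NDH-linked genes, LHCA5 was higher by 0.76, and LHCA6 had 0.22. At least 1.5-fold higher were 4 of the 6, LHCA1, LHCA3, LHCA4 and LHCA5, and 0 were lower, against 4.54% of all genes higher and 4.33% lower. The median was 0.88 over the 6 genes and −0.01 over all genes. At a 2-fold limit 2 of the 6 remained, LHCA3 and LHCA4, and LHCA1 was just below it. LHCA5 fell short of 1.5-fold with quantile normalization, at 0.57, and with a pseudocount of 0.5 of the median, at 0.42, which left 3 of the 6. R1h, WLc and pifq D are each set against the same wt D values, so these 3 comparisons are not independent of each other.

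Whole seedlings were sampled, and a difference in the number of cells of a type cannot be told apart from a difference in the mark per cell. Root markers moved with the groups. Of 11 such genes 5 have a peak, and their summed signal was 2.72 in pifq D, 2.89 in pifq R1h and 2.79 in pifq WLc, against 3.92 in wt D, 3.99 in wt R1h and 2.38 in wt WLc. At least 1.5-fold lower than in wt D were 4 of these 5 in wt WLc, 2 in pifq D and 0 in wt R1h. Of all genes, 6.16%, 4.33% and 0.628% were lower by as much in these groups. SCR, a root patterning gene, had 0.981 in wt WLc and 1.00 in wt D, while PIN2, an auxin carrier of the root, had 0.371 in wt WLc and 0.747 in wt D. Of 9 seed genes 1, the oil body gene OLEO3, has a peak, with 0.00718 in wt WLc, 0.227 in pifq D and 0.568 in wt R1h, against 0.974 in wt D. The part of tissue composition in the antenna values was not tested.

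Within pifq, the log2 changes with light were small at the genes of the pairs. After 1 h of red light LHCA5 had a log2 change of 0.38, LHCA6 of 0.24 and LHCA1 of 0.16, and the other 3 lay between −0.01 at LHCA4 and 0.08 at LHCA3. None of the 6 was 1.5-fold higher or lower in pifq R1h than in pifq D, where 1.41% of all genes were higher and 0.368% lower. In pifq WLc against pifq D, LHCA5 was higher by 0.68 and LHCA6 had 0.36. LHCA1 had 0.21, and LHCA2, LHCA3 and LHCA4 had between 0.10 and 0.12. LHCA5 alone was at least 1.5-fold higher, 1 of the 6, and 0 were lower, where 3.08% of all genes were higher and 0.985% lower. Counts this small over 6 genes cannot be told apart from these shares. The median over the 6 genes was 0.12 for red light and 0.16 for white light, and over all genes it was −0.0016 and 0.0072. Of all genes, 11.8% had a higher red-light change in pifq than LHCA1, 24.7% than LHCA3, 27.9% than LHCA2 and 54.6% than LHCA4. For white light these shares were 13.5%, 27.8%, 27.8% and 24.6%.

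The light response in pifq minus that in wt was therefore negative for most of the genes. For red light it was −0.93 on the log2 scale at LHCA4, −0.62 at LHCA1, −0.61 at LHCA5, −0.48 at LHCA3, −0.10 at LHCA6 and 0.11 at LHCA2. For white light it was −1.53 at LHCA4, −1.18 at LHCA3, −1.11 at LHCA1, −0.73 at LHCA5, −0.46 at LHCA2 and −0.05 at LHCA6. The medians over all genes were −0.00028 for red light and 0.01 for white light. In white light 0.535% of all genes had a value at or below that of LHCA4 and 40.4% had one at or below that of LHCA6. The wt D and pifq D values enter these differences and the dark comparison of the genotypes alike.

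Between the genotypes in the same light, the gap in H3K9ac was smaller in red light than in darkness for 5 of the 6 genes, and small for all 6 in white light. In pifq R1h against wt R1h, LHCA3 was higher by 0.63 and LHCA2 by 0.59, while LHCA4 had 0.48, LHCA1 0.38, LHCA5 0.15 and LHCA6 0.12. That made 2 of the 6 at least 1.5-fold higher and 0 lower, where 2.35% of all genes were higher and 3.58% lower. LHCA2 was the exception, with 0.59 in red light and 0.48 in darkness. How often the gap was smaller in red light over all genes was not counted, so the 5 of 6 has no background share beside it. In pifq WLc against wt WLc the log2 changes ran from −0.12 at LHCA4 to 0.17 at LHCA6, 0 of the 6 were 1.5-fold apart in either direction, where 1.02% of all genes were higher and 0.187% lower. Scaled to reference genes or by quantiles, LHCA3 alone remained 1.5-fold higher in red light.

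**Figure D3:**
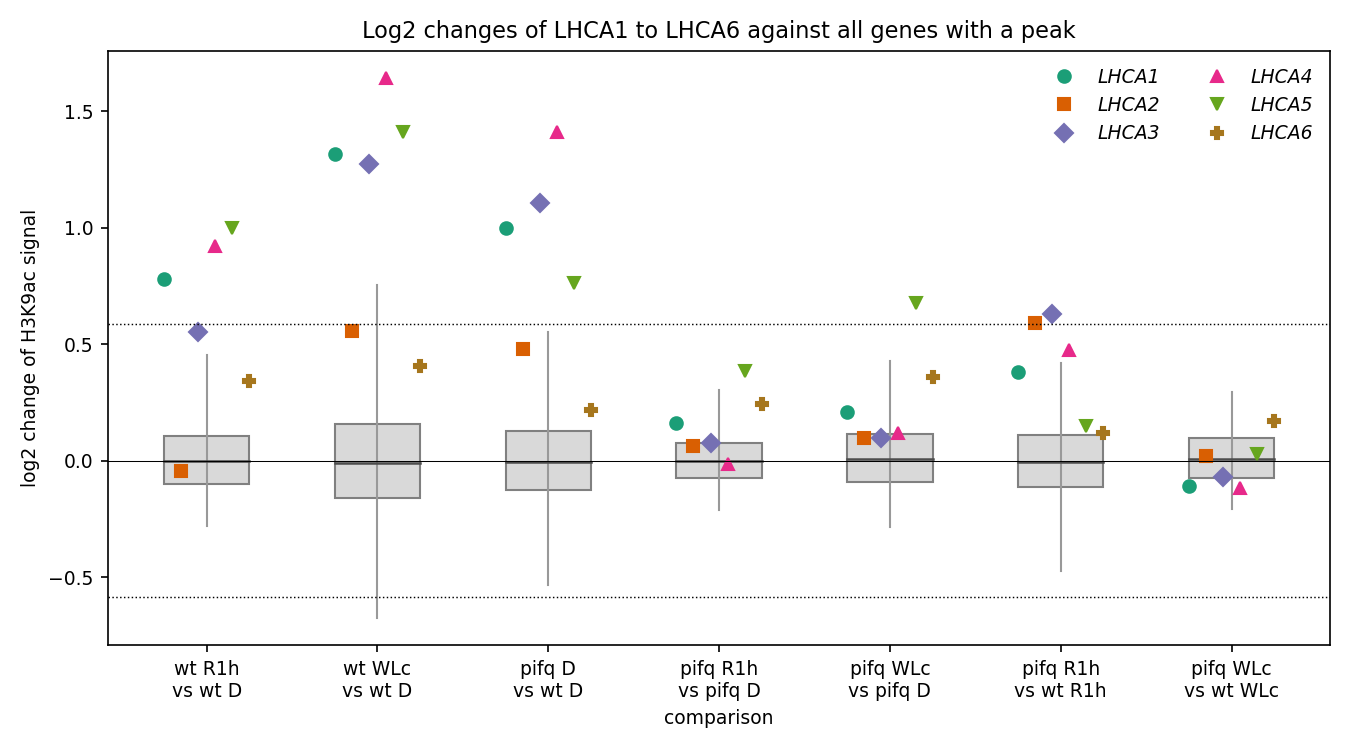
Log2 change of H3K9ac signal (y axis) of LHCA1 to LHCA6 in 7 comparisons. Boxes span the quartiles of all 17672 genes with their median, grey lines the range from their 5th to their 95th percentile, and dotted lines mark 1.5-fold. LHCA4 is the highest of the 6 in wt WLc vs wt D (1.64) and in pifq D vs wt D (1.41), and in pifq WLc vs pifq D LHCA5 alone (0.68) lies above the dotted line.

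The gain from darkness to white light in wt, taken as the signal in wt WLc minus that in wt D, was used to set red light and the mutant on one scale. In dark-grown pifq the signal was above that of wt D by 83.8% of this gain at LHCA2, 81.2% at LHCA3, 78.0% at LHCA4 and 66.9% at LHCA1. After red light, wt stood at −6.54% of it at LHCA2, 32.8% at LHCA3, 42.0% at LHCA4 and 48.2% at LHCA1. At LHCA1 to LHCA4 the pifq share was the larger. At the NDH-linked genes the red-light share was the larger, with 41.9% in pifq D and 60.0% in wt R1h at LHCA5, and 50.2% in pifq D and 82.3% in wt R1h at LHCA6. Both shares have the same wt D and wt WLc values in them, and the order of the 2 shares is that of the pifq D and wt R1h signals. That order was kept for all 6 genes under scaling to equal medians, to reference genes and by quantiles. Over the 1276 genes at least 1.5-fold higher in wt WLc, the median share was 62.8% in pifq D and 34.7% in wt R1h, and in 70.1% of them the pifq share was the larger. LHCA2 and LHCA6 are not among these genes, and of the 4 LHCA genes that are, 3 (75%) had the larger share in pifq D, close to the share over all such genes. At such genes the value in wt D is low by choice.

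**Figure D4:**
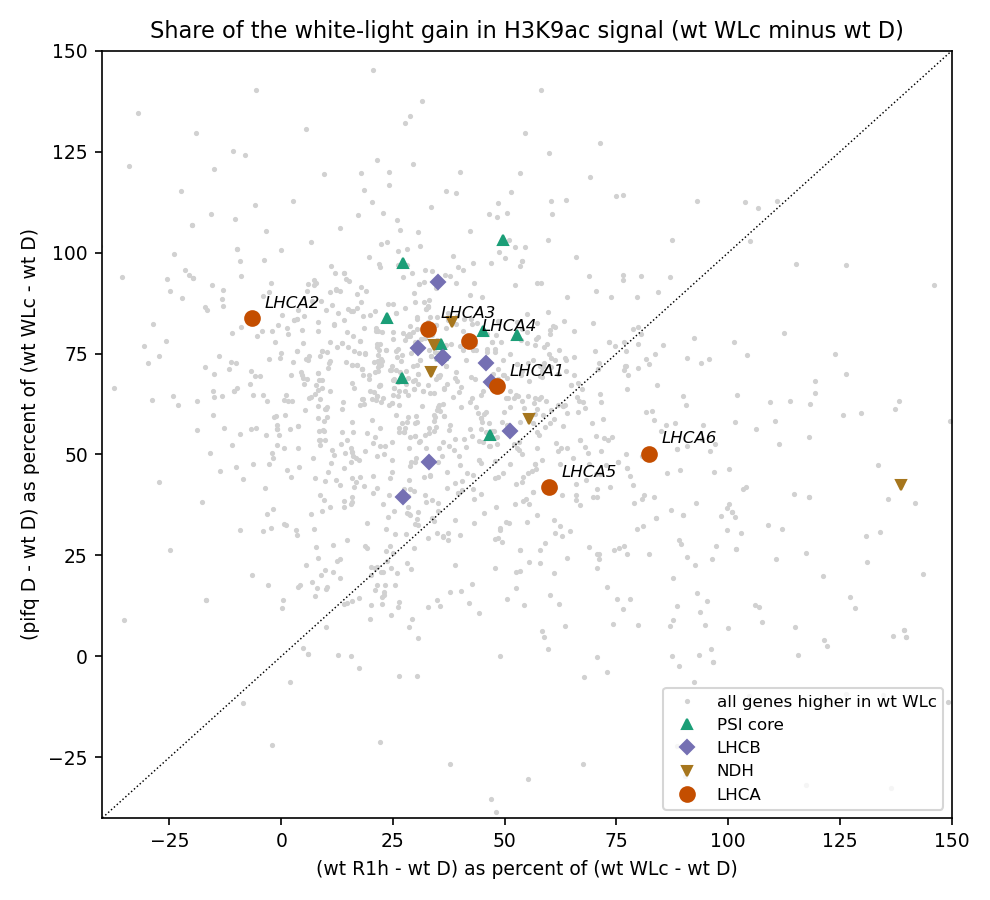
Share of the gain from wt D to wt WLc that was present in wt R1h (x axis, percent) and in pifq D (y axis, percent). Grey points are genes at least 1.5-fold higher in wt WLc, of which 1230 of 1276 fall inside the axes, and coloured points are the LHCA genes and those genes of 3 other lists past the same limit. LHCA1 to LHCA4 lie above the dotted line of equal shares, and LHCA5 and LHCA6 lie below it.

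Other nuclear genes of the same thylakoid complexes were set beside them. All 12 listed genes of the photosystem I core have a peak. At least 1.5-fold higher were 1 of the 12 in wt R1h, 9 in wt WLc and 6 in pifq D, against 3.41%, 7.22% and 4.54% of all genes. In these groups 0 of the 12 were lower, against 0.628%, 6.16% and 4.33% of all genes. The median log2 changes of the core genes were 0.30, 0.78 and 0.68. PSAK, a core subunit near the antenna, had a signal of 0.936 in pifq D and, in wt, of 1.04 in WLc and 0.619 in D. PSAG, a subunit beside the LHCA1 site, had 0.875 in pifq D and, in wt, 0.892 in WLc and 0.599 in D. The red-light median was thus 0.67 for the antenna and 0.30 for the core, while in pifq D the medians were 0.88 and 0.68. In pifq WLc against pifq D, 0 of the 12 were higher, against 3.08% of all genes, and the median of the 12 was 0.03.

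Of the antenna genes of photosystem II, LHCB1 to LHCB7, all 15 have a peak. At least 1.5-fold higher were 8 in wt R1h, 9 in wt WLc and 9 in pifq D, against 3.41%, 7.22% and 4.54% of all genes. Of the 15, 0 were lower, against 0.628%, 6.16% and 4.33% of all genes, and the medians of the 15 were 0.63, 1.39 and 0.84. The range of the LHCB genes was wider than that of the LHCA genes, from −0.33 to 2.62 in wt WLc. LHCB6, an inner antenna protein and the gene of the list with the highest mean, had 1.22 in pifq D and, in wt, 1.15 in WLc and 1.09 in D. LHCB4.2 had 1.01 in pifq D and, in wt, 1.04 in WLc and 0.975 in D. The LHCB1 genes are near-identical copies, and how far reads can be told apart among them was not measured here, so single values of these are uncertain. In all 9 LHCB genes and all 9 core genes past the 1.5-fold limit in wt WLc, the signal in pifq D was above that in wt R1h, which was so in 70.1% of all such genes. The core genes short of this limit had the same order, as did LHCB1.3 and LHCB6. LHCB4.1, LHCB4.2, LHCB4.3 and LHCB7, also short of it, had more signal in wt R1h than in pifq D, as LHCA6 had. The signals were 0.860 in wt R1h and 0.557 in pifq D at LHCB4.3, and 0.818 and 0.809 at LHCB4.1.

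The NDH complex, to which LHCA5 and LHCA6 connect photosystem I, was followed through 8 nuclear genes, all with a peak. At least 1.5-fold higher were 4 in wt R1h, 5 in wt WLc and 4 in pifq D, against 3.41%, 7.22% and 4.54% of all genes. Of the 8, 0 were lower, against 0.628%, 6.16% and 4.33% of all genes, and the medians of the 8 were 0.63, 0.95 and 0.69. NDHL had a signal of 0.728 in pifq D and, in wt, of 0.865 in WLc, 0.468 in R1h and 0.263 in D. NDHN, which had the highest mean of the list, had 0.777 in pifq D and, in wt, 0.799 in WLc, 0.786 in R1h and 0.671 in D. Of the 5 genes past the 1.5-fold limit in wt WLc, 4 (80%) had more signal in pifq D than in wt R1h, against 70.1% of all such genes.

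**Figure D5:**
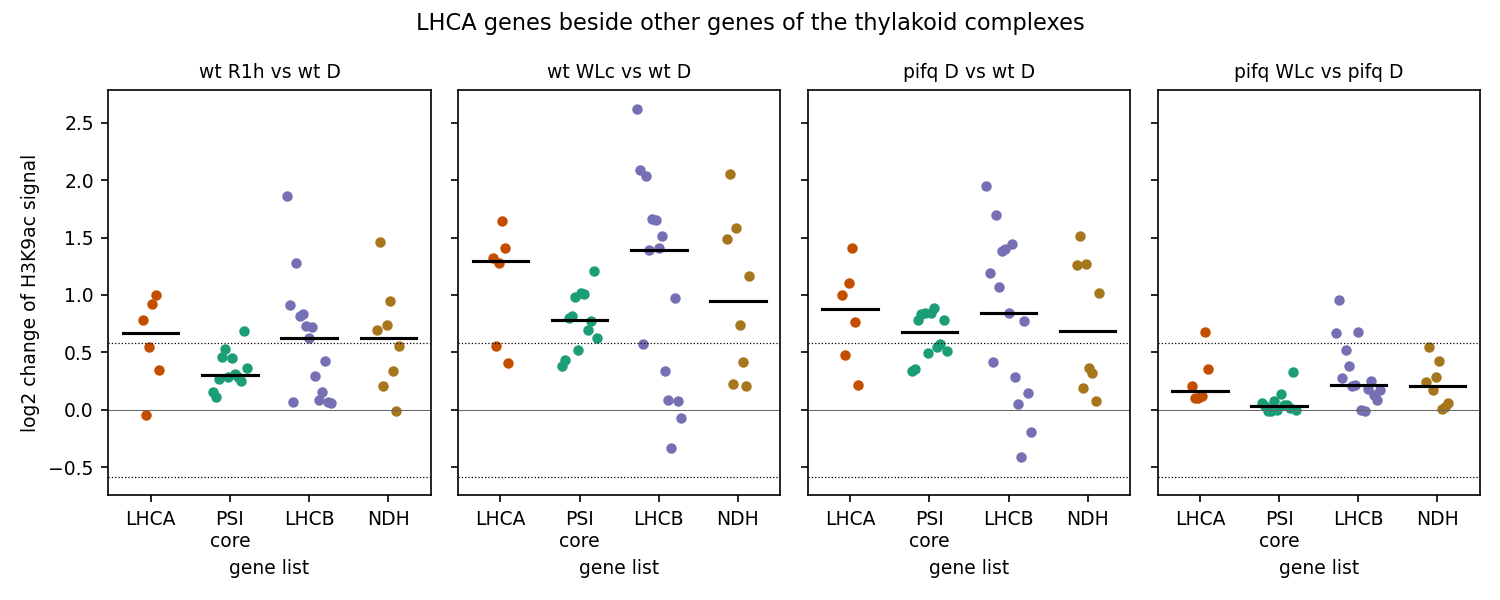
Log2 changes of H3K9ac signal (y axis) of the 6 LHCA genes, 12 photosystem I core genes, 15 LHCB genes and 8 NDH genes in 4 comparisons. Each point is a gene, black bars are list medians and dotted lines mark 1.5-fold. In wt R1h vs wt D the core median, 0.30, is the lowest of the 4 lists, and in wt WLc vs wt D the LHCA and LHCB medians are 1.296 and 1.39.

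The nearest peak on each side of every LHCA peak was read in the same way. Of these 12 flanking peaks 1 was at least 1.5-fold higher in wt WLc than in wt D, the second peak of ATSMC2, 5497 bp from the LHCA4 peak, at 0.234 in wt WLc and 0.0313 in wt D, where 7.22% of all genes were higher. It was also the 1 of the 12 past this limit in wt R1h, with a log2 change of 1.19, and in pifq D, with 1.08. Of all genes, 3.41% and 4.54% were higher by as much. LHCA4, whose peak is shared with ATSMC2, had 0.92 and 1.41. The wt D signal of this flanking peak is below the pseudocount of 0.0717, so its log2 changes depend on that setting. The other 11 had log2 changes from −0.18 to 0.48 in wt WLc, from −0.43 to 0.31 in wt R1h and from −0.11 to 0.36 in pifq D. The peak of CXIP1, 299 bp from that of LHCA1 on the side of its start site, had 1.04 in wt WLc and 0.745 in wt D, a log2 change of 0.45. That of AT3G54880, 199 bp away on the other side, had 0.760 in wt WLc and 0.767 in wt D. In R1h against wt D it had −0.43, where LHCA1 had 0.78.

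Among themselves, LHCA1, LHCA3 and LHCA4 had similar profiles over the 6 groups. After centring the log2 values of each gene on their mean, LHCA1 and LHCA3 differed by 0.10 (root mean square, log2) with a Pearson r of 0.975, LHCA3 and LHCA4 by 0.13 with an r of 0.987, and the partners LHCA1 and LHCA4 by 0.14 with an r of 0.991. By root mean square the least similar were LHCA4 and LHCA6, at 0.42, and by r LHCA2 and LHCA6, at 0.654 (root mean square 0.20). LHCA2 and its partner LHCA3 differed by 0.24 with an r of 0.919. Outside the family, the 8 genes nearest to the mean LHCA profile were AT5G40910 (0.03), PETC, which encodes the Rieske protein of the cytochrome b6f complex (0.04), AT5G46105 and APE2, which are entered with 1 and the same peak (0.04), TCP10 (0.05), EGY2 (0.05), AT1G65190 (0.05) and ACP4 (0.05). PETC had 0.557 in pifq D, 0.652 in pifq R1h and 0.653 in pifq WLc, against 0.274 in wt D, 0.481 in wt R1h and 0.684 in wt WLc. The gene nearest to LHCA1 was FAD5, that nearest to LHCA2 was AT2G25355, that nearest to LHCA3 was AT2G43560 and that nearest to LHCA5 was TIC55-II, at 0.05, 0.03, 0.03 and 0.04. For LHCA4 and LHCA6 it was by construction the gene entered with the same peak, and on other peaks it was TROL (0.07) and AT5G42310 (0.03). Each profile has 6 pooled values, 1 for each group, and the likeness is given as a description.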

How the data were processed

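Chromatin was immunoprecipitated by the authors with an H3K9ac antibody from 18 samples, 3 for each group, beside 6 inputs, 24 in all. Per the methods and the submitters' notes, 50-base single reads were aligned with Bowtie2 to TAIR9 or TAIR10, regions were called with BayesPeak and quantified with DiffBind, and a peak was given to the gene whose start site was closest. Tool versions are not given in the sources used here. The deposited values are signal per bp of peak, pooled over libraries by the authors in a way not stated, and whether peak starts count from 0 or 1 is not stated. The 6 totals (signal multiplied by length) differ by at most 2.08%. All 6 columns of values were used.

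For log2 changes, a pseudocount of 0.0717 (0.1 of the median) was added to each signal. Of several peaks of a gene, the one of highest mean was used, and 1.5-fold was the limit for counts over all 17672 genes. The plan named limma for values per library and a description for 1 value per group, which applied. The members, the 71 listed genes and the comparisons were chosen with earlier results of these data known. The genes named are the 6 members, up to 4 genes per list with the highest mean signal, and the genes of nearest profile. PNSB1, LHCB4.3, LHCB7 and the flanking peaks were chosen after their values were seen. All 71 identifiers matched the TAIR10.1 annotation, and the last peak of each of the 5 chromosomes lies within its TAIR10.1 length. Python with numpy 2.4.6 and pandas 2.3.3 was used. Alternatives were other pseudocounts, scalings, limits and peak choices, and, added after the data were seen, leaving out genes that share a peak.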

Additional observations from a re-analysis of the deposited data

Results flagged for a closer look

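At 2 genes the difference between red light and darkness had opposite signs in the genotypes, which was not tested, since each group has 1 pooled value. LHCA4 had a log2 change of −0.0137 in pifq (0.534 in pifq R1h, 0.540 in pifq D) and of 0.92 in wt (0.364 in wt R1h, 0.158 in wt D). LHCA2 had a log2 change of 0.0638 in pifq (1.11 in pifq R1h, 1.06 in pifq D) and of −0.0453 in wt (0.713 in wt R1h, 0.738 in wt D). All but the 0.92 of these changes are small beside the 1.5-fold limit.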

How the results depend on the processing

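No paired analysis was possible because the deposited columns hold 1 pooled value per group and carry no replicate numbers, and for the same reason no replicate could be left out. Of the 42 log2 changes of the 6 genes in 7 comparisons, 41 kept their sign under 6 alternatives (3 pseudocounts, none included, and 3 scalings). The exception was LHCA2 in pifq WLc against wt WLc, at 0.02 and, with quantile normalization, −0.12. A change of pseudocount cannot turn a sign, so only the 3 scalings could have done so. Of the 70 recomputed counts of genes at least 1.5-fold higher, 57 were within 1.5 times the count reported. These 57 include all counts for pifq R1h against pifq D and for pifq WLc against wt WLc, which were 0 under every setting. Counts over 4 genes were set against those over 6. With a pseudocount of 0.5 of the median, the count was 0 for wt R1h against wt D, 0 for pifq WLc against pifq D and 0 for pifq R1h against wt R1h. At a 2-fold limit it was 0 for each of these 3 and 2 for pifq D against wt D. Without the 25% of peaks of lowest mean signal, which removes LHCA4 and LHCA5 and leaves 4 genes, it was 1 for wt R1h, 2 for wt WLc and 2 for pifq D, each against wt D, and 0 for pifq WLc against pifq D. Quantile normalization and scaling to reference genes each gave 1 for pifq R1h against wt R1h. Over all genes, quantile normalization gave 357 higher and 222 lower in wt R1h (603 and 111 as reported), 994 and 1191 in wt WLc (1276 and 1088), 559 and 780 in pifq D (803 and 765), and 474 and 290 in pifq WLc against pifq D (544 and 174). Leaving out, a choice made after seeing the data, LHCA4 and LHCA6, whose peaks are shared, gave 2 of 4 genes for wt R1h, 3 of 4 for wt WLc and 3 of 4 for pifq D, each against wt D. The depth of the libraries is unknown, so the precision of each value is unknown too. The causes of these shifts were not tested.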

Other observations

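PNSB1, a subunit gene of the NDH complex that was singled out after its values were seen, had 0.836 in wt R1h, 0.715 in wt WLc and 0.399 in wt D, so that the red-light signal was above that of white light. In pifq it had 0.533 in D, 0.756 in R1h and 0.737 in WLc. It was the 1 gene of the NDH list, among those at least 1.5-fold higher in wt WLc, with more signal in wt R1h than in pifq D. That order was also seen at LHCA5, and at LHCA6, which is short of this limit. Of the NDH genes short of it, NDHN (0.786 in wt R1h, 0.777 in pifq D) and PNSB2 (0.697 and 0.690) had it too. PNSB3 did not. The opposite order was found in the other 4 NDH genes past this limit and in 70.1% of all genes past it in wt WLc.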
